A study of Mus musculus with 12 samples.

Results

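Macrophages given red blood cells (RBC) of mice fed a high-fat diet were compared with macrophages given RBC of chow-fed mice. The comparison took every array on which macrophages had met RBC: 8 of the 12 arrays of the series, 4 with high-fat RBC and 4 with chow RBC. All macrophages were peritoneal cells of C57BL/6 mice that had received thioglycollate, an irritant that draws leukocytes into the peritoneal cavity. Donors ate chow or high-fat food for 12 weeks, starting at 6 weeks of age. Their cells are called chow macrophages and high-fat macrophages below. Sex-linked transcripts also differed between these macrophages on every array, so macrophage diet cannot be told apart from donor sex. Each of the 4 exposed groups (chow or high-fat macrophages, each with chow or high-fat RBC) had 2 arrays, labelled with separate animal numbers, and so had the 2 groups of unexposed macrophages. The labels do not say that equal numbers in different groups mark the same animal, so p-values measure the spread between these arrays. The number of RBC given, the time of exposure, and whether RBC came from 1 donor or several are not given in the sources used here.

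A macrophage that engulfs an RBC digests it in the phagolysosome, opens the heme ring with heme oxygenase and exports the freed iron through ferroportin. Peritoneal macrophages also answer signals on engulfed cells with cytokines of the interleukin-1 family, chemokines and lipid mediators. A high-fat diet is known to raise blood lipids, and RBC exchange membrane cholesterol with plasma. The comparison addresses whether transcripts of macrophage cultures given RBC differ with the diet of the RBC donor. Engulfment itself was not measured on these arrays.

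RBC diet went with few differences. Il1f9, which encodes interleukin-36 gamma, an alarm cytokine of the interleukin-1 family, was 1.90-fold higher with high-fat RBC than with chow RBC, averaged over both macrophage diets. Ifitm1, an interferon-inducible membrane protein of the IFITM family, was 1.62-fold higher. Within high-fat macrophages, the same genes were called higher, together with Lcn2, Il1b and Mirt2. For none of them was the difference in RBC response between the macrophage diets called. Lcn2 encodes lipocalin-2, which binds bacterial iron carriers, Il1b encodes interleukin-1 beta, and Mirt2 is a long noncoding RNA.

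These calls come from limma, fitted to the log2 signals of 19938 genes on all 12 arrays with 1 mean per group. Genes whose p stayed below 0.05 after Benjamini-Hochberg adjustment over the whole table are the ones called. Averaged over both macrophage diets, 2 genes were called higher and 0 lower, 0.01% of all genes tested. In high-fat macrophages 5 were called higher and 0 lower (0.0251%). In chow macrophages 0 were called, with a smallest adjusted p of 0.115. For the difference of the RBC response between the macrophage diets (high-fat minus chow macrophages, the interaction) 0 were called, with a smallest adjusted p of 0.67. At an unadjusted p below 0.05 limma found 629 genes for the averaged comparison, 555 in chow macrophages, 789 in high-fat macrophages and 718 for the interaction (2.38% of all genes higher and 1.22% lower), where 996.9 would be expected if no gene differed. In the same fit, exposure to RBC of either kind against none gave 1480 calls (7.42%), and macrophage diet among exposed arrays gave 967 (4.85%). The macrophages behind these 967 also differed in sex-linked transcripts, so diet and donor sex cannot be told apart in them. Averaged over both macrophage diets, only 17 genes (0.0853%) differed by more than 0.5 on the log2 scale between high-fat and chow RBC. The number was 25 (0.125%) in chow macrophages, 55 (0.276%) in high-fat macrophages and 190 (0.953%) for the interaction.

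The bases before the start site are shown for the 4 called genes that have an entry in the RefSeq promoter table (build GRCm38.p6), because these genes carry the comparison. Mirt2 has no entry. Each window holds the 250 bases before the transcript's start, 5′ to 3′ on the gene's strand. Il1f9 lies at chr2:24186226-24186475 (plus strand), Ifitm1 at chr7:140967826-140968075 (plus strand), Lcn2 at chr2:32387740-32387989 (minus strand) and Il1b at chr2:129371140-129371389 (minus strand). Both strands were searched for 2 motifs, TGANTCA (AP-1) and TTGCNNAA (C/EBP). Capitals mark matches.
Il1f9: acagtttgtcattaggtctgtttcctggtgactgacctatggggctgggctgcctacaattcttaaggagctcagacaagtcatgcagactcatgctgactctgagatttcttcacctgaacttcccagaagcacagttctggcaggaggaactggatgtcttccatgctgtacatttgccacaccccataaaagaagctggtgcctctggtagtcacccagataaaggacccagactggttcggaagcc
Ifitm1: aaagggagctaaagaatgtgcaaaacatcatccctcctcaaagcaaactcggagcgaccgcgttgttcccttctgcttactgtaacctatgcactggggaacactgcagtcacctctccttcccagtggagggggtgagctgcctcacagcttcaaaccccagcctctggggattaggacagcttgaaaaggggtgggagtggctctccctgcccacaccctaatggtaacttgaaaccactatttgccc
Lcn2: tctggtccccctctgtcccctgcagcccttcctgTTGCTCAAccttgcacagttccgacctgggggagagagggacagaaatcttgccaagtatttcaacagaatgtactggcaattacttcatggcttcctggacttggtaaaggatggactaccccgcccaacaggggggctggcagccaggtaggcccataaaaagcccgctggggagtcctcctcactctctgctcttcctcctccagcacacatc
Il1b: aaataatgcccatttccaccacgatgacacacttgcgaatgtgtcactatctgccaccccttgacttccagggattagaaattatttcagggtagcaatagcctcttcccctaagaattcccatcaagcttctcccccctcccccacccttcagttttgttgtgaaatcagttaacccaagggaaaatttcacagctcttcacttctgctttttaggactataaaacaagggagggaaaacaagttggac
The Lcn2 window holds 1 match, to the C/EBP letters, 216 to 209 bases before the start. The windows of Il1f9, Ifitm1 and Il1b hold 0 matches to these letters. Over 32536 windows of the same length in the table, 6.73% hold an AP-1 match and 9.57% a C/EBP match.

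Il1f9 stood highest with high-fat RBC in both macrophage diets. In chow macrophages its log2 signal was 6.07 and 6.33 with chow RBC and 7.03 and 6.79 with high-fat RBC. In high-fat macrophages it was 6.88 and 6.67 with chow RBC and 7.88 and 7.94 with high-fat RBC. Arrays with high-fat RBC lay above those with chow RBC in each diet, with no overlap, and unexposed arrays were lower still, between 5.49 and 5.91. The averaged log2 difference was 0.92 ± 0.09 (SE; limma adjusted p = 8.4e-04). It was 0.71 ± 0.12 in chow macrophages (1.64-fold, adjusted p = 0.22) and 1.13 ± 0.12 in high-fat macrophages (2.20-fold, adjusted p = 0.0046). The difference between these responses, 0.42 ± 0.17, was not called (adjusted p = 1.00). The averaged call held when any single array was left out, with a largest adjusted p of 0.012. The call within high-fat macrophages was lost without replicate 2 with chow RBC (adjusted p = 0.058) or replicate 2 with high-fat RBC (adjusted p = 0.055).

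Ifitm1 showed the same order with a smaller step in chow macrophages. Its log2 signal there was 6.48 and 6.43 with chow RBC and 6.84 and 6.73 with high-fat RBC. Its values in high-fat macrophages were 6.41 and 6.06 with chow RBC and 7.27 and 7.34 with high-fat RBC. The arrays did not overlap in either diet, and unexposed arrays lay between 5.83 and 6.29. The averaged difference was 0.70 ± 0.09 (adjusted p = 0.030), with 0.33 ± 0.13 in chow macrophages (adjusted p = 1.00) and 1.07 ± 0.13 in high-fat macrophages (2.10-fold, adjusted p = 0.012). The interaction, 0.74 ± 0.18, was not called (adjusted p = 1.00). The averaged call was lost without any one of 7 arrays. Adjusted p was 0.24 and 0.17 without replicate 1 or 2 of chow macrophages with chow RBC, and 0.22 and 0.10 without replicate 1 or 2 of chow macrophages with high-fat RBC. It was 0.078 without replicate 2 of high-fat macrophages with chow RBC, and 0.066 and 0.11 without replicate 1 or 2 of high-fat macrophages with high-fat RBC. The call in high-fat macrophages was lost without replicate 2 with chow RBC (adjusted p = 0.18) or replicate 1 or 2 with high-fat RBC (adjusted p = 0.095 and 0.090).

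Lcn2, Il1b and Mirt2 were called in high-fat macrophages and not in the average. Their averaged differences were 0.55, 0.65 and 0.61, close to the threshold (limma adjusted p = 0.096 each). Lcn2 measured 6.66 and 6.55 on the arrays of high-fat macrophages with chow RBC and 7.61 and 7.51 with high-fat RBC. In chow macrophages the values were close, 6.97 and 7.09 with chow RBC and 7.17 and 7.16 with high-fat RBC. The difference in high-fat macrophages was 0.96 ± 0.13 (1.94-fold, adjusted p = 0.021), against 0.13 ± 0.13 in chow macrophages (adjusted p = 1.00). The test of the difference between them did not pass (0.82 ± 0.18, adjusted p = 0.92).

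Il1b measured 5.19 and 5.20 in high-fat macrophages with chow RBC and 6.34 and 6.16 with high-fat RBC. Unexposed high-fat macrophages were lower, at 3.82 and 3.80. In chow macrophages its arrays overlapped, with 5.67 and 5.89 for chow RBC and 6.28 and 5.78 for high-fat RBC. The difference was 1.05 ± 0.15 in high-fat macrophages (2.08-fold, adjusted p = 0.026) and 0.25 ± 0.15 in chow macrophages (adjusted p = 1.00). The interaction was 0.81 ± 0.21 (adjusted p = 1.00).

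Mirt2 measured 6.37 and 6.13 in high-fat macrophages with chow RBC and 7.0 and 7.50 with high-fat RBC, so the high-fat RBC arrays lay apart from each other but above both chow RBC arrays. In chow macrophages it was 6.85 and 6.95 against 7.19 and 7.03. The difference was 1.00 ± 0.14 in high-fat macrophages (2.00-fold, adjusted p = 0.026) and 0.21 ± 0.14 in chow macrophages (adjusted p = 1.00). The interaction of Mirt2, 0.79, was not called. Without 1 array these 3 calls were fragile. For Lcn2, adjusted p was 0.14 and 0.23 without replicate 1 or 2 of high-fat macrophages with chow RBC, 0.33 and 0.090 with replicate 1 or 2 of those with high-fat RBC left out, and 0.058 without either array of chow macrophages with chow RBC. For Il1b the same omissions gave 0.23, 0.23, 0.36, 0.090 and 0.067. For Mirt2 adjusted p was 0.12 and 0.31 without replicate 1 or 2 with chow RBC, 0.18 without replicate 2 with high-fat RBC, and 0.079 without either array of chow macrophages with chow RBC. It was 0.054 without either array of chow macrophages with high-fat RBC and 0.058 without either unexposed chow array, while without replicate 1 with high-fat RBC the call held.

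**Figure D1:**
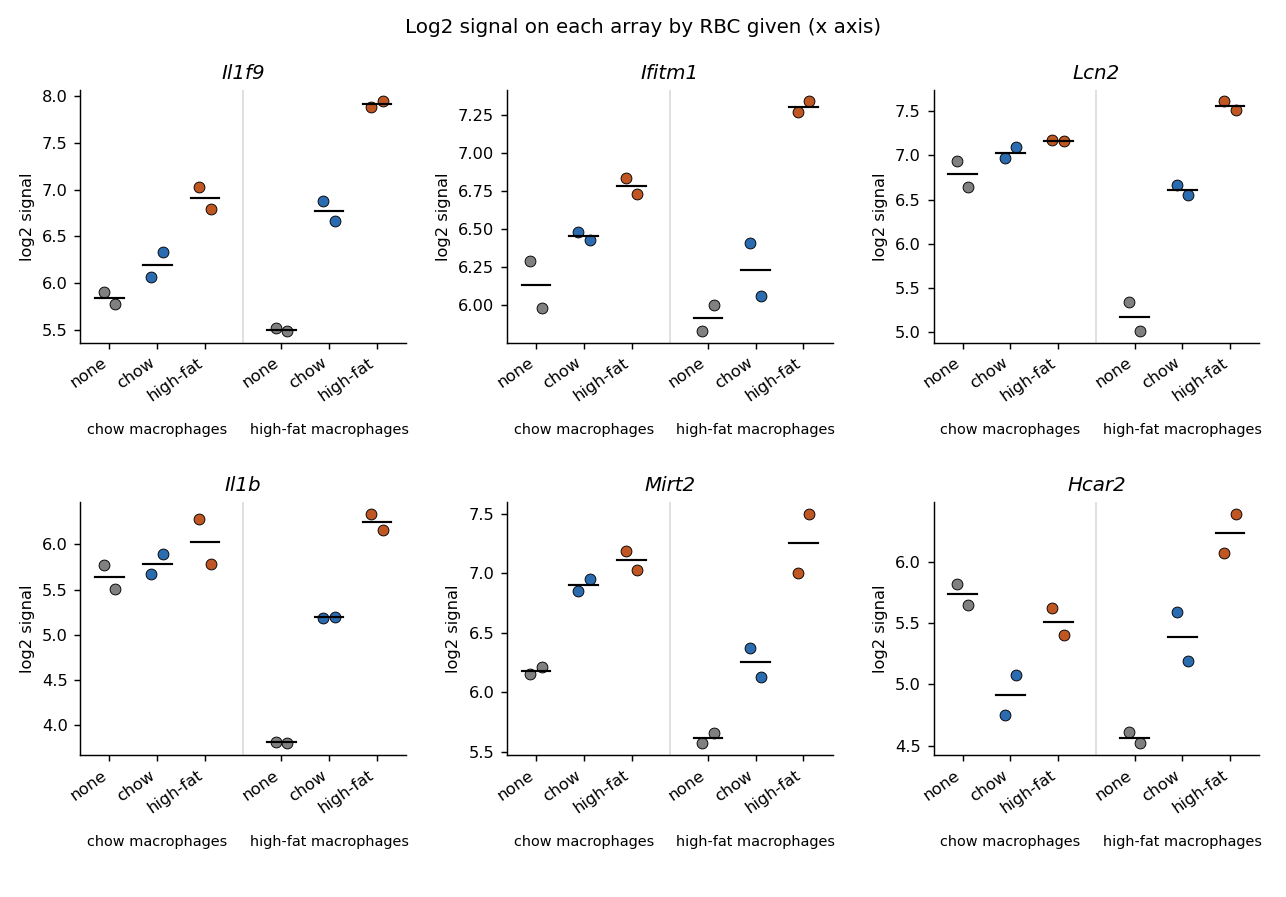
Log2 signal (y axis) of Il1f9, Ifitm1, Lcn2, Il1b, Mirt2 and Hcar2 on each of the 12 arrays, grouped by macrophage diet and by RBC (x axis: chow, high-fat or none); points are arrays and bars are means of 2. In high-fat macrophages both high-fat RBC arrays sit above both chow RBC arrays for all 6 genes, as for Il1f9 at 7.88 and 7.94 against 6.88 and 6.67.

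Receptors for metabolites came next in order of p, and were not called. Hcar2 encodes a receptor for niacin and the ketone body beta-hydroxybutyrate. Its log2 signal in chow macrophages was 4.75 and 5.08 with chow RBC and 5.62 and 5.40 with high-fat RBC. High-fat macrophages gave 5.59 and 5.19 against 6.07 and 6.39. High-fat RBC arrays were above chow RBC arrays in both diets, and the averaged difference was 0.72 ± 0.11 (adjusted p = 0.072). Gpr84, a receptor for medium-chain fatty acids, lay the other way. It was at 6.34 and 6.39 with chow RBC and 5.52 and 5.63 with high-fat RBC in chow macrophages, and at 5.52 and 5.25 against 5.17 and 5.0 in high-fat macrophages. Its averaged difference was -0.54 ± 0.08 (adjusted p = 0.069), and no array of one RBC diet reached those of the other within a macrophage diet. With any 1 array left out, the averaged difference was between -0.61 and -0.48 for Gpr84 and between 0.62 and 0.82 for Hcar2.

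Non-overlap of this kind, with both high-fat RBC arrays on one side of both chow RBC arrays in each macrophage diet, held for 459 genes higher (2.3%) and 525 lower (2.63%). It describes these arrays and is not a test.

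Among 24 cytokine genes measured, 1 was called higher in the average (Il1f9) and 0 lower. At an unadjusted p below 0.05, 4 were higher and 2 lower, where 1.45% of all genes were higher and 1.71% lower. The 4 became 2 without replicate 2 of chow macrophages or replicate 1 of high-fat macrophages, both with high-fat RBC. The 2 became 3 without replicate 2 of chow macrophages with chow RBC, and 1 without any 1 of 5 other exposed arrays. The median difference of the list was 0.00, beside 0.00 over all genes. Il15, which sustains T and NK cells, was at 0.28 ± 0.11 in the average and at 0.61 ± 0.16 in high-fat macrophages (adjusted p = 1.00 for the average). Tnfsf9, the 4-1BB ligand, was at -0.27 ± 0.08. Tnf, Il6 and Il10 were not called: their averaged differences were -0.06, 0.16 and 0.05. The 95% intervals ran from -0.22 to 0.10 for Tnf, from -0.08 to 0.40 for Il6 and from -0.11 to 0.22 for Il10. Il1r2, the decoy receptor for interleukin-1, was at 0.80 ± 0.14 in high-fat macrophages (adjusted p = 0.13) and 0.04 ± 0.14 in chow macrophages.

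Chemokines were mixed. Ccl3, which attracts monocytes and other leukocytes, was at 9.25 and 9.31 with chow RBC and 9.79 and 9.77 with high-fat RBC in high-fat macrophages. In chow macrophages it was at 9.31 and 9.35 against 9.50 and 9.43. The arrays of the RBC diets did not overlap in either, and the averaged difference of 0.32 ± 0.06 was not called (adjusted p = 0.25). Its neighbour in function, Ccl4, was at 0.26 ± 0.08. Ccl22, a chemokine for regulatory and type 2 helper T cells, lay lower, at -0.44 ± 0.15. Ccl2, the main monocyte attractant, was at 0.11 (95% interval -0.17 to 0.39), and the neutrophil attractant Cxcl1 at 0.03 (-0.15 to 0.21). Of 16 CC chemokine and receptor genes 2 were higher and 1 lower at an unadjusted p below 0.05 (1.45% and 1.71% of all genes). Of 11 CXC chemokines 0 were higher and 0 lower. None of either list was called.

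Cxcl2, another neutrophil attractant, had the smallest p of all genes in the test of whether the RBC response differed between macrophage diets. In chow macrophages it was at 8.06 and 8.0 with chow RBC and 7.59 and 7.66 with high-fat RBC. High-fat macrophages had 7.34 and 7.26 with chow RBC and 8.13 and 8.11 with high-fat RBC. So the arrays separated in opposite directions, lower by 0.41 ± 0.15 in chow macrophages and higher by 0.82 ± 0.15 in high-fat macrophages. The interaction of 1.23 ± 0.21 was not called over all genes (adjusted p = 0.67). It passed in 3 of the settings tried: when only the 8 exposed arrays were fitted (adjusted p = 0.020) and when either unexposed array of high-fat macrophages was left out (adjusted p = 0.0096 each). Unexposed arrays lay far apart, at 10.46 and 10.60 in chow macrophages and 5.04 and 5.65 in high-fat macrophages. The related Cxcl3 was at -0.73 ± 0.22 in chow macrophages, with an interaction of 0.90 ± 0.31 (adjusted p = 1.00).

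**Figure D2:**
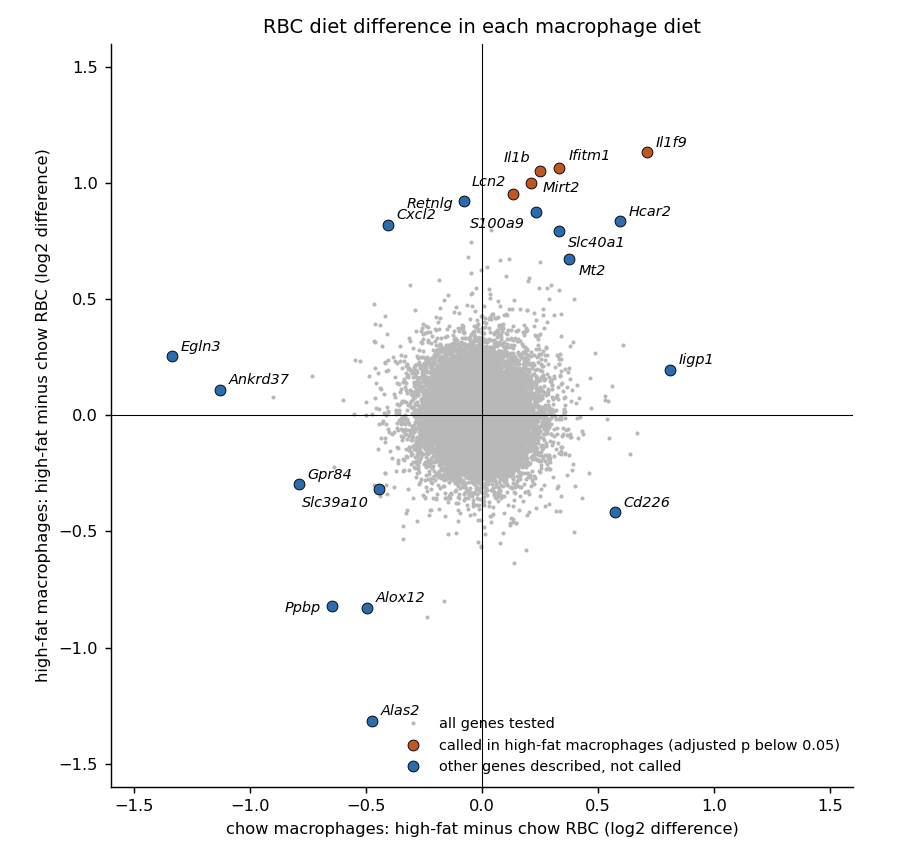
Log2 difference between high-fat and chow RBC in chow macrophages (x axis) and in high-fat macrophages (y axis) for all 19938 genes (grey), with the genes called in high-fat macrophages in orange and other described genes in blue. Il1f9 lies at 0.71 and 1.13, Cxcl2 at -0.41 and 0.82, and Egln3 at -1.34 and 0.26.

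The 2 macrophage diets share no array in this comparison, so their differences can be set side by side. Whether both were given RBC of the same donors is not known, so these differences may not be independent. Over all genes, 48.2% had the same sign, and the correlation across genes (which are not independent replicates) was -0.01 (Pearson) and -0.04 (Spearman). Of the 20 genes of smallest p in high-fat macrophages, 15 had the same sign in chow macrophages, and for 12 the arrays were separated the same way there. Of the 20 of smallest p in chow macrophages, 7 had the same sign in high-fat macrophages and for 5 the arrays were separated the same way. Further down the order the shares came closer to each other, with the same sign for 33 of 50 and 60 of 100 genes taken from high-fat macrophages and for 25 of 50 and 48 of 100 taken from chow macrophages. Within a single macrophage diet, arrays separated higher for 13.4% and lower for 18% of all genes in chow macrophages, and for 17.7% and 15.9% in high-fat macrophages.

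Genes of hypoxia signalling lay lower with high-fat RBC in chow macrophages, without a call. Egln3, an oxygen-sensing prolyl hydroxylase induced by HIF, was at 6.61 and 5.84 with chow RBC and 5.11 and 4.67 with high-fat RBC. Unexposed chow macrophages were at 4.94 and 4.86, near the high-fat RBC arrays. The difference was -1.34 ± 0.20 (2.53-fold lower, adjusted p = 0.12). In high-fat macrophages it was 0.26 ± 0.20, and the interaction of 1.59 ± 0.28 was not called (adjusted p = 0.67). Without replicate 2 of chow macrophages with chow RBC, whose omission left the higher array alone, the difference in chow macrophages was -1.72 and the interaction 1.98. Without replicate 1 of that group they were -0.95 and 1.21.

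Ankrd37, a HIF target of unsettled function, was at 7.58 and 6.93 with chow RBC and 6.36 and 5.89 with high-fat RBC in chow macrophages. The arrays did not overlap, and the chow RBC arrays were also above the unexposed ones (6.06 and 5.80). The difference was -1.13 ± 0.19 (adjusted p = 0.22), against 0.11 ± 0.19 in high-fat macrophages. Bnip3, a mitochondrial receptor of mitophagy and a HIF target, was at 8.09 and 7.66 against 7.29 and 7.27, a difference of -0.60 ± 0.16. Adm, which encodes the vasodilator adrenomedullin, was at -0.46 ± 0.12 and the lactate exporter gene Slc16a3 at -0.37 ± 0.12 in chow macrophages. Of 23 glycolysis and HIF target genes, 5 were lower and 0 higher at an unadjusted p below 0.05 in chow macrophages (background 1.73% lower, 1.05% higher), with a median of -0.14 beside -0.01 over all genes. Replicate 1 with chow RBC had the highest mean signal over the list, 8.35, against 8.11 for replicate 2 and 8.01 and 7.96 with high-fat RBC. Without it 3 members were lower and the median was -0.02, and without replicate 2 with chow RBC 11 were lower and the median was -0.20. In high-fat macrophages 0 were lower and 1 higher (background 1.64% and 2.32%), with a median of 0.02.

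Other genes that led in chow macrophages alone were also not called. Gpr84 had the smallest p there (-0.79 ± 0.11, adjusted p = 0.12). Tnfsf9 was at 4.84 and 4.94 with chow RBC and 4.30 and 4.38 with high-fat RBC, a difference of -0.55 ± 0.11 (adjusted p = 1.00). High-fat macrophages had 4.48 and 4.24 against 4.49 and 4.24, with no separation. Iigp1, an immunity-related GTPase induced by interferon gamma, was at 3.1 and 3.12 with chow RBC and 3.47 and 4.36 with high-fat RBC. That difference of 0.81 ± 0.21 (adjusted p = 1.00) came mostly from the second high-fat RBC array.

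**Figure D3:**
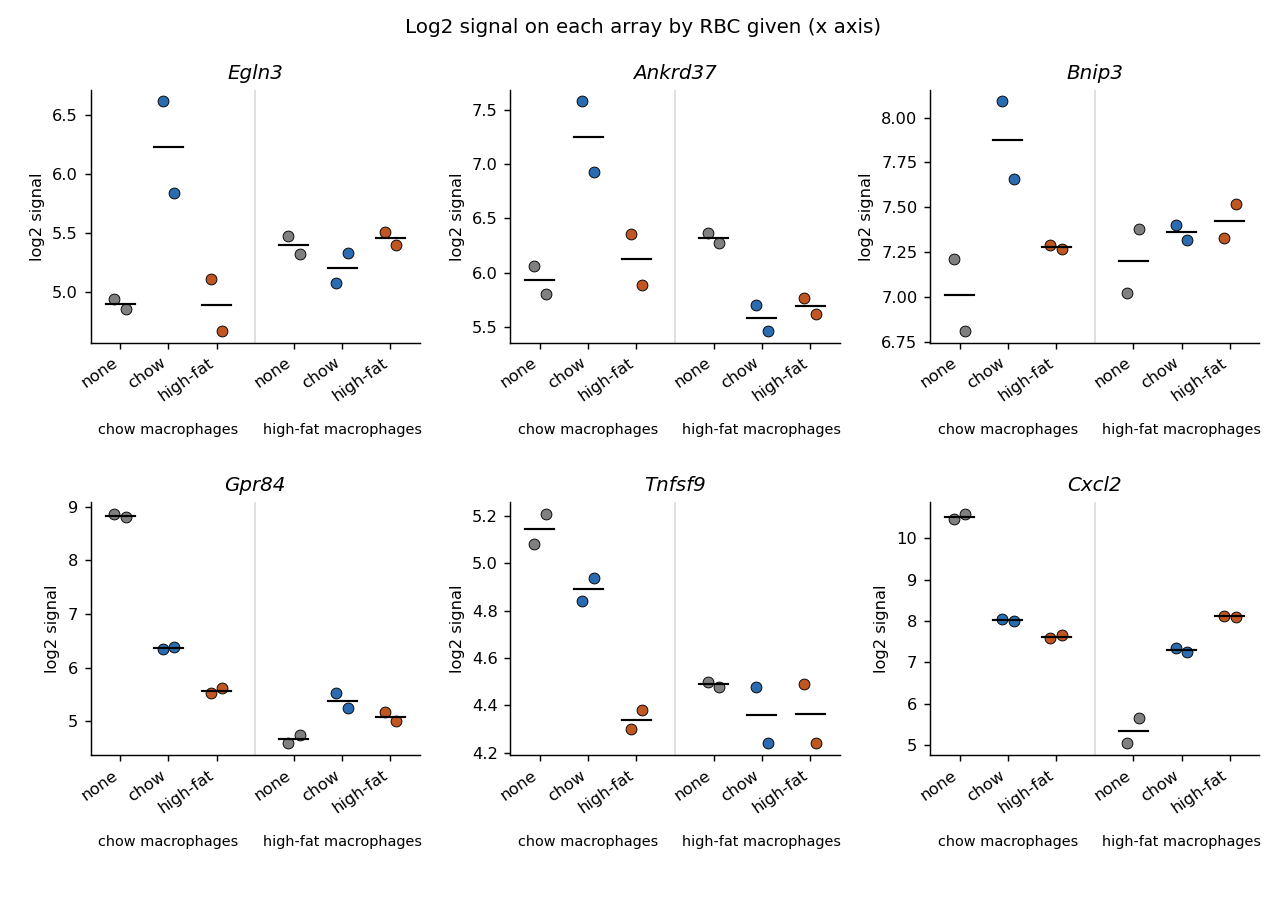
Log2 signal (y axis) of Egln3, Ankrd37, Bnip3, Gpr84, Tnfsf9 and Cxcl2 on each of the 12 arrays, by macrophage diet and RBC given (x axis); points are arrays and bars are means of 2. In chow macrophages both high-fat RBC arrays lie below both chow RBC arrays for all 6 genes, while Cxcl2 is higher with high-fat RBC in high-fat macrophages (8.13 and 8.11 against 7.34 and 7.26).

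Remaining genes of the interaction with the smallest p were Greb1l, Zfp458 and Cd226, and none was called (adjusted p = 0.92 each). Cd226, an activating adhesion receptor, differed by 0.57 ± 0.15 in chow macrophages and -0.42 ± 0.15 in high-fat macrophages. Zfp458, a zinc finger gene, was at 0.77 ± 0.16 and Greb1l at 0.78 ± 0.15 for the interaction.

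Iron and zinc genes included several of the larger differences. Slc40a1, which encodes the iron exporter ferroportin, was at 4.04 and 4.07 with chow RBC and 4.21 and 4.56 with high-fat RBC in chow macrophages. In high-fat macrophages it was at 4.35 and 4.46 against 5.30 and 5.10. All high-fat RBC arrays lay above the chow RBC arrays of their diet, and the averaged difference was 0.56 ± 0.11 (1.48-fold, adjusted p = 0.22). Hmox1, the inducible heme oxygenase, lay between 11.58 and 11.92 on all exposed arrays, with a difference of -0.03 (95% interval -0.21 to 0.15). Cd163, the scavenger receptor for hemoglobin bound to haptoglobin, was at -0.15 ± 0.07. Of 25 heme and iron genes, none was called in the average, and the median was -0.01. At an unadjusted p below 0.05, 3 were higher and 1 lower (1.45% and 1.71% of all genes).

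Mt2, a metallothionein that binds zinc and copper, was at 8.25 and 8.49 against 8.65 and 8.84 in chow macrophages and 7.51 and 7.65 against 8.41 and 8.10 in high-fat macrophages. High-fat RBC arrays were again on the higher side in both, with a difference of 0.52 ± 0.09 (adjusted p = 0.12). Unexposed arrays lay higher than any exposed array, between 9.07 and 9.23. Mt1, its close relative, was at 0.12 ± 0.08. Slc39a10, a zinc importer, lay lower, at 8.19 and 8.16 against 7.77 and 7.69 in chow macrophages and 8.26 and 8.26 against 7.88 and 8.0 in high-fat macrophages. Its difference was -0.38 ± 0.07 (adjusted p = 0.12). Of 7 metallothionein and zinc transport genes, 3 had separated arrays on the higher side and 1 on the lower (2.3% and 2.63% of all genes). At an unadjusted p below 0.05, 1 was higher and 1 lower (1.45% and 1.71% of all genes).

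No marker of another blood cell was called in the average. Some of the genes above are also expressed by neutrophils, Il1b, Lcn2 and Il1r2 among them. In RNA of whole cultures, fewer cells of a type and less RNA per cell cannot be told apart. Of 12 neutrophil markers, 6 had a positive and 6 a negative averaged difference. At an unadjusted p below 0.05, all 6 positive ones and 1 negative one passed (Ngp, a granule protein, -0.26 ± 0.10), beside 1.45% of all genes higher and 1.71% lower, with a median of 0.13. The other 5 negative members, the granule and protease genes Mmp8, Mmp9, Camp, Ltf and Elane, lay between -0.07 and -0.02. The median was 0.072 without replicate 1 of chow macrophages with high-fat RBC, and 0.33 when the genes of lowest mean signal were removed. In high-fat macrophages 6 were higher and 0 lower (2.32% and 1.64% of all genes), with a median of 0.20. With 1 array left out that median lay between 0.16 and 0.26, and it was 0.44 without the genes of lowest signal. In chow macrophages 1 was higher and 1 lower (1.05% and 1.73% of all genes), with a median of 0.05. That median was -0.03 without replicate 1 with chow RBC and 0.15 without replicate 2. S100a9, a calcium-binding protein abundant in neutrophils, was at 9.58 and 9.71 with chow RBC and 9.96 and 9.79 with high-fat RBC in chow macrophages. Values in high-fat macrophages were 9.70 and 9.57 against 10.46 and 10.56. Its arrays did not overlap in either diet, and the difference was 0.88 ± 0.14 in high-fat macrophages (adjusted p = 0.077) and 0.23 ± 0.14 in chow macrophages (adjusted p = 1.00). In unexposed cultures it was between 3.72 and 4.76.

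Cxcr2, the neutrophil chemokine receptor, was at 0.45 ± 0.09, Csf3r, the receptor for granulocyte colony-stimulating factor, at 0.28 ± 0.08, and S100a8, the partner of S100a9, at 0.37 ± 0.09 (adjusted p = 0.25, 1.00 and 0.84). Retnlg, a resistin-like protein of neutrophils, was at 0.92 ± 0.15 in high-fat macrophages (adjusted p = 0.11) and -0.08 ± 0.15 in chow macrophages. Clec4n, which encodes the fungal receptor dectin-2 of myeloid cells, was at 0.75 ± 0.13 and -0.05 ± 0.13. The mean log2 signal over the 12 neutrophil markers was 6.13 and 6.22 in chow macrophages with chow RBC and 6.27 and 6.18 with high-fat RBC. In high-fat macrophages it was 6.04 and 5.97 against 6.26 and 6.27, and on unexposed arrays between 5.12 and 5.45. The part of these cells in the differences of Il1f9, Ifitm1, Lcn2, Il1b and Mirt2 was not tested. Log2 array signals have no true zero, so no marker can be called absent, but Ngp on exposed arrays (3.43 to 3.94) lay near its unexposed range (3.36 to 3.72).

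Most platelet and erythroid transcripts lay the other way. Of 9 platelet markers, 0 were called, with a median of -0.20. At an unadjusted p below 0.05, 0 were higher and 5 lower, beside 1.45% of all genes higher and 1.71% lower. The lower ones were 3 without replicate 2 of chow macrophages with chow RBC or replicate 1 of chow macrophages with high-fat RBC, and the median was -0.13 in the latter case. Ppbp, a platelet chemokine, was at 9.48 and 9.64 against 8.44 and 9.39 in chow macrophages and 9.82 and 9.69 against 8.54 and 9.33 in high-fat macrophages. Replicate 1 with high-fat RBC was the lowest exposed array in each diet, and the averaged difference was -0.73 ± 0.21 (adjusted p = 1.00). Alox12, the platelet 12-lipoxygenase, was at 5.82 and 5.63 against 5.09 and 5.37, and at 6.37 and 5.86 against 5.05 and 5.52. It lay lower on all 4 arrays with high-fat RBC, by 0.66 ± 0.13 in the average (adjusted p = 0.24). Gp9, a subunit of the platelet receptor for von Willebrand factor, was at -0.39 ± 0.13 and Tubb1, the platelet tubulin, at -0.26 ± 0.08. Pf4, which macrophages also express and which was chosen after its values were seen, was at 0.02 ± 0.07. The mean signal over the platelet markers was between 6.97 and 7.07 on the chow RBC arrays and between 6.57 and 6.88 on the high-fat RBC arrays, with 5.81 to 6.03 on unexposed arrays.

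Alas2, the erythroid enzyme that starts heme synthesis, was at 6.02 and 6.12 against 5.39 and 5.80 in chow macrophages and 7.35 and 6.32 against 5.68 and 5.36 in high-fat macrophages. Replicate 1 of high-fat macrophages with chow RBC was the highest array. The averaged difference was -0.89 ± 0.17 (1.86-fold lower, adjusted p = 0.22). It passed without replicate 2 of that group, whose omission left the higher array alone (-1.15, adjusted p = 0.0028). Bpgm, which makes the RBC metabolite 2,3-bisphosphoglycerate, was at -0.24 ± 0.10. Of 7 erythroid markers, 0 were called, 2 had a positive averaged difference (at most 0.16) and 5 a negative one. At an unadjusted p below 0.05, 1 was higher and 2 lower (1.45% and 1.71% of all genes). In chow macrophages 0 were higher and 0 lower (1.05% and 1.73% of all genes).

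The globin probe sets each name several adult globin genes and were fitted apart from the single-symbol genes, among 1621 such probe sets of which 0 were called (68 at an unadjusted p below 0.05). One beta globin probe set was at 12.09 and 12.24 with chow RBC against 11.53 and 11.84 with high-fat RBC in chow macrophages, and at 12.51 and 12.07 against 11.53 and 11.23 in high-fat macrophages. All high-fat RBC arrays were below the chow RBC arrays of their diet, and unexposed arrays were between 4.31 and 4.63. The averaged difference was -0.70 ± 0.13 for this probe set and -0.63 ± 0.13 for the other beta globin probe set (adjusted p = 0.43 and 0.46). Both alpha globin probe sets were at -0.60, with errors of 0.15 and 0.13 (adjusted p = 0.79 and 0.46). The beta globin probe set given by array and the mean platelet signal were lower on every array with high-fat RBC than on the chow RBC arrays of the same macrophage diet. The mean neutrophil signal was higher with high-fat RBC in high-fat macrophages and overlapped in chow macrophages. The part of these signals in the differences of Il1f9 and Ifitm1 was not tested.

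**Figure D4:**
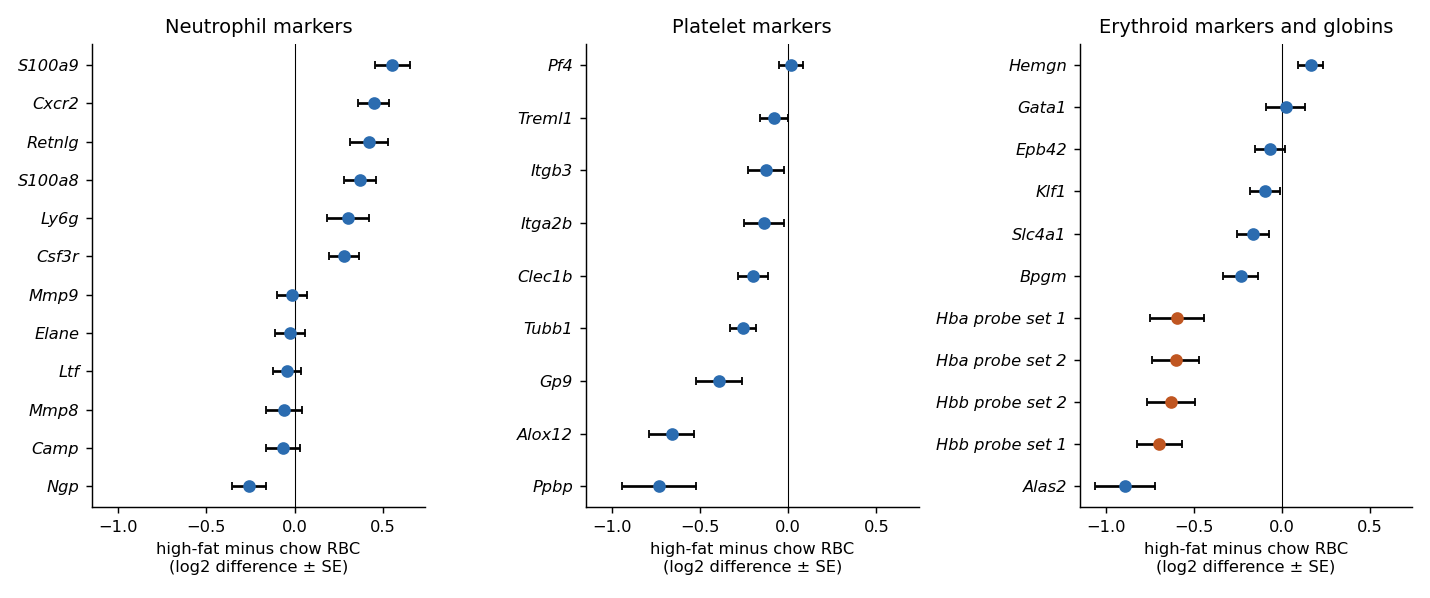
Log2 difference between high-fat and chow RBC, averaged over macrophage diets (x axis), for every measured neutrophil, platelet and erythroid marker (blue) and for the globin probe sets (orange); bars are ± 1 SE of the limma fit. Of the neutrophil markers S100a9 lies at 0.56, of the platelet markers Ppbp at -0.73, and the globin probe sets lie between -0.60 and -0.70.

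Macrophage identity genes showed no call. Adgre1, an adhesion receptor that marks macrophages, was at 0.04 (95% interval -0.12 to 0.21) and Csf1r, the receptor for macrophage colony-stimulating factor, at -0.03 (-0.18 to 0.12). Of 13 identity genes, 0 were higher and 0 lower at an unadjusted p below 0.05 (1.45% and 1.71% of all genes). Their mean log2 signal stayed between 9.28 and 9.35 on exposed chow arrays and between 9.03 and 9.06 on exposed high-fat arrays.

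Interferon-stimulated genes did not follow Ifitm1. Of 29 measured, 0 were called, and the median was -0.09. At an unadjusted p below 0.05, 1 was higher and 6 lower (1.45% and 1.71% of all genes). Isg20, an antiviral exonuclease, was at 6.13 and 6.25 against 5.92 and 5.82 in chow macrophages and 6.41 and 6.06 against 5.84 and 5.81 in high-fat macrophages. High-fat RBC arrays were below chow RBC arrays in both, with a difference of -0.36 ± 0.09 (adjusted p = 0.95). Ifit1, which binds foreign RNA ends, was at -0.38 ± 0.14, and Rsad2, the antiviral enzyme viperin, chosen after its values were seen, at -0.29 ± 0.12 (adjusted p = 1.00 each). For both, replicate 1 with high-fat RBC was the lowest exposed array in each macrophage diet. Without replicate 1 of chow macrophages with high-fat RBC, 3 of the list were higher and 1 lower, with a median of -0.02. Without replicate 1 of chow macrophages with chow RBC, or of high-fat macrophages with high-fat RBC, 2 were lower. It was 3 without replicate 2 of high-fat macrophages with chow RBC.

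Genes of NF-kB signalling had 0 calls among 23. At an unadjusted p below 0.05, 0 were higher and 2 lower (1.45% and 1.71% of all genes). Tnip3, an inhibitor of that pathway, was at -0.43 ± 0.13 and the apoptosis inhibitor Birc3 at -0.24 ± 0.10. In arginine metabolism, Arg2, the mitochondrial arginase, was at 0.39 ± 0.11 with separated arrays in both diets (adjusted p = 1.00). Arg1, a marker of alternative activation, was at -0.07 (95% interval -0.30 to 0.16), and Nos2, the inducible nitric oxide synthase, at 0.06 (-0.19 to 0.31). Among prostaglandin genes, Pla2g4a, the phospholipase that releases arachidonate, was at 0.16 ± 0.07, and Ptgs2, the inducible cyclooxygenase, at 0.04 (-0.14 to 0.22).

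Lipid genes differed little. The cholesterol exporter gene Abca1 was at 0.03 (95% interval -0.13 to 0.19) and the scavenger receptor gene Cd36 at 0.11 (-0.03 to 0.24). Nr1h3, which encodes the oxysterol receptor LXR alpha, was at -0.18 ± 0.07 and Scd1, a fatty acid desaturase, at -0.27 ± 0.11 (adjusted p = 1.00 each). Over 27 genes of lipid uptake, storage and oxidation, the median was 0.00. At an unadjusted p below 0.05, 0 were higher and 1 lower (1.45% and 1.71% of all genes). Of 25 lysosomal genes 0 were higher and 0 lower, although 22 had a positive difference, where 47.5% of all genes did. Their median was 0.04. Of 19 genes of oxidative phosphorylation 0 were higher and 0 lower, and of 33 engulfment genes also 0 and 0.

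**Figure D5:**
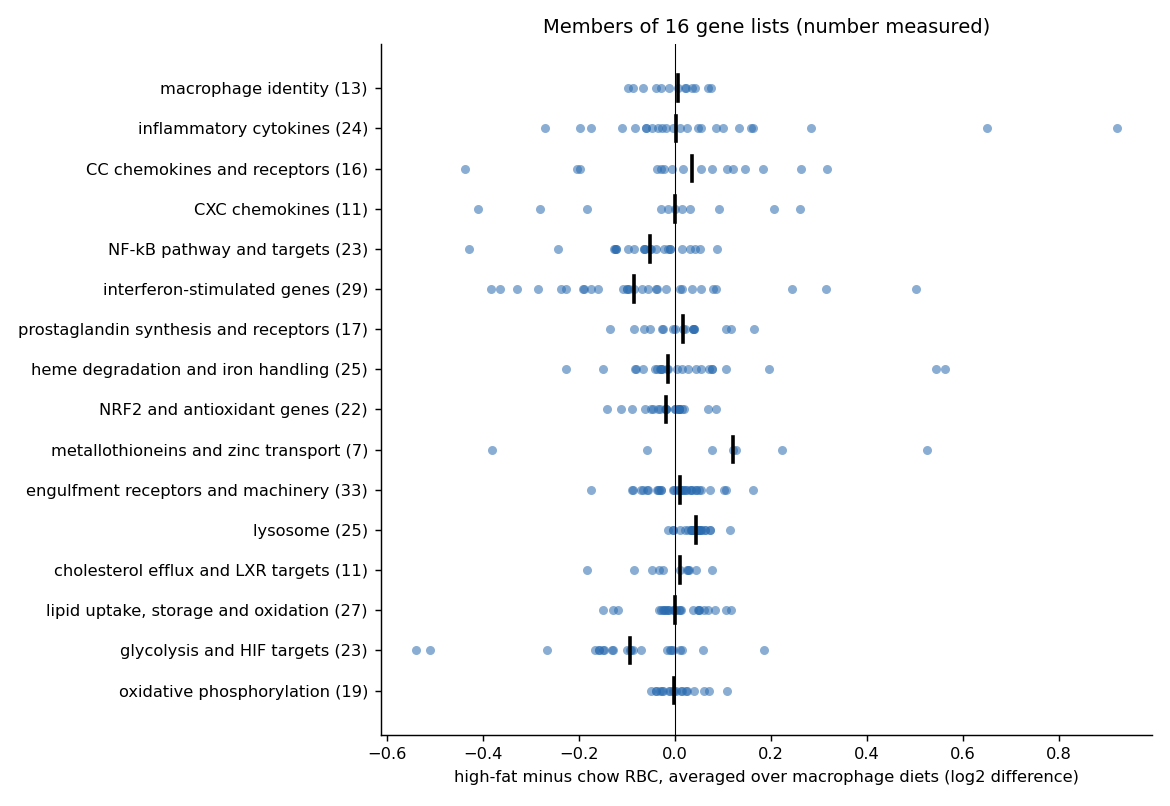
Log2 difference between high-fat and chow RBC, averaged over macrophage diets (x axis), for each measured member (points) of 16 gene lists (y axis, number measured in brackets), with the list median as a black line. Medians lie between -0.09 and 0.12, and Il1b at 0.65 and Il1f9 at 0.92 lie furthest to the right among the lists drawn. The list that holds Hcar2 (0.72) is not drawn.

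Over all arrays, median log2 signals were between 5.24 and 5.31, and arrays of the same group correlated across genes at 0.996 to 0.997. Arrays of different RBC diet within a macrophage diet correlated at 0.996 to 0.997 as well. Xist, transcribed from the inactive X chromosome, was between 9.07 and 9.44 on all chow-macrophage arrays and between 3.22 and 4.14 on all high-fat ones, and the Y-linked Eif2s3y was between 2.76 and 3.42 against 7.38 to 7.72. Macrophage diet and donor sex, as these transcripts mark it, cannot be told apart. This touches the interaction and every other comparison of chow with high-fat macrophages. The comparison of RBC diets is made within each macrophage diet, where Xist differed by -0.02 ± 0.14, Eif2s3y by 0.11 ± 0.08, Kdm5d by 0.01 ± 0.12 and Uty by 0.34 ± 0.14 in the average. Uty, a Y-linked histone demethylase gene, was above 0 at an unadjusted p of 0.028 and was not called (adjusted p = 1.00), with 0.38 in chow and 0.30 in high-fat macrophages.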

How the data were processed

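Transcripts were measured on Affymetrix Mouse Gene ST arrays; per the labels' protocols, RNA was column-purified, amplified and biotin-labelled. The authors deposited log2 signals per probe set and array; their summarization and normalization are not given in the sources used here, and the range of the values is what shows a log2 scale. Of 35557 probe sets, 35556 had values, 23410 are listed in the platform's probe table and 21789 have a single symbol; where a gene had several (999 genes) the brightest was kept, leaving 19938. The 1621 with several symbols were fitted apart, and so were the 12146 unlisted ones, of which 0 were called (499 at an unadjusted p below 0.05). There was no filter on low values, and detection calls were not analysed here; the number of arrays limits the precision.

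limma 3.58.1 in R 4.3.3 (lmFit, eBayes) fitted 6 group means to 12 arrays (residual df 6, prior df 7.69), with 4 contrasts, two-sided. Errors are standard errors, and p values were adjusted by Benjamini-Hochberg over all genes. The procedure was tested on simulated data. Counts over gene lists (47 lists, 740 of 806 members measured) carry no test. Members and lists were chosen with earlier results of these data known, and non-overlap was chosen as a description after seeing the values.

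Named genes are those called in the average (up to 15 each way) or within a diet or the interaction (up to 8), the 5 of smallest p where fewer than 5 were called, up to 6 members of a list by smallest p, and always Abca1, Adgre1, Alas2, Arg1, Bpgm, Ccl2, Cd36, Csf1r, Cxcl1, Cxcl2, Hmox1, Il10, Il1b, Il6, Nos2, Ppbp, Ptgs2, S100a8, S100a9, Slc40a1 and Tnf; the text describes a selection of these. Alternatives were median centring, quantile normalization, a 1.5-fold minimum, adjusted p below 0.10, removal of the dimmest 33.3% of genes, array weights, robust eBayes with a trend on intensity, the replicate number as a block, probe sets averaged per gene, fits to the 8 exposed arrays, omission of each array and, added after seeing the data, omission of X and Y genes.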

Additional observations from a re-analysis of the deposited data

How the results depend on the processing

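Il1f9 kept its direction and its call in the averaged comparison under all 25 alternatives, with adjusted p up to 0.017. Ifitm1 kept its direction under all 25 and lost the averaged call under 9, with adjusted p up to 0.46 (8 exposed arrays with additive terms). In high-fat macrophages the calls of Il1f9, Ifitm1, Lcn2, Il1b and Mirt2 were lost under 2, 3, 6, 9 and 11 of 24 alternatives, all with the same direction. Outside the omissions of single arrays, Il1b lost its call after quantile normalization (0.054), and with the 8 exposed arrays alone Il1b and Mirt2 lost theirs (0.065 and 0.085). The replicate block within each macrophage diet ended the same calls (0.055 and 0.077) and the averaged call of Ifitm1 (0.062). The cause was not tested.

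The averaged count of 2 genes became 7 at an adjusted p below 0.10, 11 with an intensity trend and robust eBayes, 5 with array weights and 1 with the 8 exposed arrays and additive terms. The 5 genes in high-fat macrophages became 13 with the trend and 9 with array weights. With 4 means for the 8 exposed arrays alone, 1 gene passed for the interaction, Cxcl2. Under the replicate block, animal numbers over all groups gave 1 gene in chow macrophages (Ankrd37), and numbers within each macrophage diet gave 1 in the average, 2 in chow macrophages (Egln3 and Ankrd37) and 3 in high-fat macrophages. Over the 15 pairs of groups, replicate differences correlated across genes at -0.23 to 0.34. The 2 pairs above 0.1 each lay within a macrophage diet. They were high-fat RBC with no RBC in high-fat macrophages (0.34) and chow RBC with no RBC in chow macrophages (0.14). Between chow and high-fat RBC the correlation was 0.03 (chow macrophages) and -0.08 (high-fat macrophages). The remaining pairs within a diet were at -0.02 (chow macrophages) and -0.06 (high-fat macrophages). With 2 replicates a group, the labels and these values do not establish a pairing, so the main fit has no block. The other alternatives left each count within 1.5 times of its main value.

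Omission of each array in turn gave 1 to 4 genes in the average, 0 to 2 in chow macrophages, 0 to 6 in high-fat macrophages and 0 to 1 for the interaction. Those counts need not hold the same genes. All 5 genes called in high-fat macrophages lost their calls without replicate 2 with chow RBC or replicate 2 with high-fat RBC. Il1f9 kept its call in high-fat macrophages under every other omission. Alas2 in high-fat macrophages moved from -1.32 to -1.83 without replicate 2 with chow RBC. The averaged count was 4 without replicate 2 of high-fat macrophages with chow RBC, where 1 was higher and 3 lower, and 1 without any 1 of 5 other exposed arrays.

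Over 117 values for named genes and 2856 alternatives, 2745 kept direction and side of the threshold, 40 lost a call, 52 gained one and 19 changed sign. All sign changes came from leaving out 1 array, and the genes had main differences of at most 0.11 in size, except Il1b in chow macrophages (0.25). The ranges over these omissions were, for the average, -0.022 to 0.081 for Abca1, -0.022 to 0.10 for Adgre1, -0.19 to 0.052 for Arg1, -0.062 to 0.0059 for Csf1r, -0.021 to 0.082 for Cxcl1, -0.080 to 0.021 for Hmox1, -0.0025 to 0.13 for Nos2, -0.019 to 0.049 for Pf4, -0.029 to 0.11 for Ptgs2 and -0.13 to 0.0067 for Tnf. In chow macrophages they were -0.00043 to 0.50 for Il1b and -0.17 to 0.25 for Il1r2, and in high-fat macrophages -0.0088 to 0.23 for Ankrd37.

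Over 47 gene lists in 3 comparisons, 2882 of 3008 medians under an alternative stayed within 1 SD between replicates of the list's mean signal, and 126 moved further. Of 6016 counts at an unadjusted p below 0.05, 5380 stayed within 1.5 times and 636 moved, 428 of them by leaving out 1 array.

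Scaling moved the median of all genes by less than 0.02. Signal over background was not analysed, so genes of low signal carry an unknown error.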
